A study of Mus musculus with 16 samples.

Results

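The glutamate, GABA and glycine receptor subunits were followed through the neuronal differentiation of mouse embryonic stem (ES) cells with and without Taf4a. The set comprised 49 of the 27807 genes of the series. They were chosen by name alone: the AMPA subunits Gria1 to Gria4, the NMDA subunits of the Grin family, the kainate subunits Grik1 to Grik5, the metabotropic receptors of the Grm family, the GABA-A subunits of the Gabr family, the GABA-B subunits Gabbr1 and Gabbr2, and the glycine receptor subunits of the Glr family. Gabra6 was not analysed here. A mean over the 16 libraries of 10 normalised counts or more was asked for testing, which 30 members reached and 19 did not.

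The product of Taf4a belongs to TFIID, a general factor that helps to place RNA polymerase II at promoters. The ES cells were derived from blastocysts of heterozygous crosses, and the libraries were labelled as wild type (Taf4+/+, WT) or as homozygous null (Taf4a-/-, KO). Each genotype was sampled as undifferentiated ES cells grown on inactivated feeder fibroblasts, and as embryoid bodies (EB), floating aggregates of differentiating cells, at EB4, EB5 and EB8 of a retinoic acid protocol that leads towards neurons. Per the study, EB4 was taken before retinoic acid was added, and EB5 and EB8 after. Each of the 8 groups held 2 libraries of polyadenylated RNA. The study derived 2 lines of each genotype and states that RNA of 2 independent lines of each was sequenced. The labels do not say whether the replicate number stands for a line, so the p-values measure the spread between these libraries.

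The receptors encoded by these genes receive the main fast signals of the nervous system. AMPA, kainate and NMDA receptors are cation channels opened by glutamate, assembled from subunits that set their conductance, calcium entry and kinetics. GABA-A and glycine receptors are chloride channels built as pentamers, whereas the metabotropic glutamate and GABA-B receptors signal through G proteins. Immature neurons express a different mixture of these subunits from mature ones, and several subunits are also transcribed in progenitors and in cells outside the nervous system.

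Recovered reads ranged from 22442118 to 40711826 per library. The ES libraries held at least 32631020 reads and the EB libraries at most 27685306, so that stage and depth cannot be told apart in the comparison of EB4 with ES. Taf4a transcripts were counted at 1590.9 to 1959.6 in the WT libraries and at 1972.8 to 2400 in the KO libraries, which does not check the labels because the null allele removes internal exons only. Markers of pluripotency summed to between 62433 and 109850 normalised counts in the ES libraries of both genotypes. The neuronal marker sum was already 8029.5 to 10328 in ES cells, mostly from Stmn2 (5302.6 to 6490.7) and Tubb3 (2180.8 to 4004.6), and so did not by itself mark neurons. Genes of the X chromosome stood 0.357 to 0.546 above their mean (median log2 deviation) in WT ES replicate 2 and in replicate 2 of the KO at each stage, and at -0.257 to -0.151 elsewhere. Genes of chromosome 11 stood 0.18 to 0.27 above their mean in replicate 1 of the KO at each stage, and between -0.127 and 0.0285 in the other libraries. Gria3, Gabra3, Gabre, Gabrq, Glra2 and Glra4 lie on the X chromosome, and Gria1, Glra1, Gabrb2, Gabrp, Grin2c and Grm6 on chromosome 11. The median gene of chromosome 8 stood 0.385 to 0.411 above its mean in replicate 1 of WT EB4, EB5 and EB8. In the other libraries it stood at -0.158 to 0.0271. Libraries of WT ES and WT EB thus differed on chromosomes X and 8. In WT, stage cannot be told apart from these differences in the comparison of EB4 with ES.

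The promoter sequences of 35 members were found in RefSeq (build GRCm38.p6), as 42 windows of 250 bases before and 50 after a transcription start. Those of 3 members are shown, each of a gene that was lower in the KO at EB8 and each with a searched string in capitals. They were chosen after the values were seen. The window of Gria2 is chr3:80802786-80803085 on the minus strand, that of Grm2 is chr9:106656060-106656359 on the minus strand and that of Gabra3 is chrX:72656758-72657057 on the minus strand.
Gria2: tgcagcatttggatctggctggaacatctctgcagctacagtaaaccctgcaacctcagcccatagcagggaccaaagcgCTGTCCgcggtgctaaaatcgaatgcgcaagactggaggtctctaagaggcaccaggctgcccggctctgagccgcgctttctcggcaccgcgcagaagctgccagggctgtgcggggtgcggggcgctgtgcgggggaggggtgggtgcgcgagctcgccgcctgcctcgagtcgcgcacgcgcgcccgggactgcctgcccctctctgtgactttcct
Grm2: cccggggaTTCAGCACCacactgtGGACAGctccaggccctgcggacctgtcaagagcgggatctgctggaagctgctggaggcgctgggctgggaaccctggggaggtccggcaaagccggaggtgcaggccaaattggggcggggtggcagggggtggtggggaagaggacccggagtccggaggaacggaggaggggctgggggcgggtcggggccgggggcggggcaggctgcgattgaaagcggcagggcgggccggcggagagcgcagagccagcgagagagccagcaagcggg
Gabra3: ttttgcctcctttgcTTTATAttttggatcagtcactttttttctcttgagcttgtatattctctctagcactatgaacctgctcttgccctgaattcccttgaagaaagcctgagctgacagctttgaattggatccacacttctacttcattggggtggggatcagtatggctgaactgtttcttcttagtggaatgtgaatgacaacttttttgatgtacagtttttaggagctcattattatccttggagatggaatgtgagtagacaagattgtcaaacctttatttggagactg
The capitals mark TATAAA, the core of the TATA box bound by TFIID, and TTCAGCACC or GGACAG, the left and right parts of the RE1 element to which the repressor REST binds in neuronal genes. All were searched on both strands, and no matches overlap in the printed windows. TATAAA was present in 5 of the 42 windows (11.9%, against 13.6% of 32851 promoter windows of the genome), which belonged to Gabra3, Gabrb2, Glra2 and Grin3b. In Gabra3 and Glra2 it was on the strand opposite to the gene only, printed as TTTATA. On the strand of the gene it began at -30 from the start in Gabrb2 and at -164 in Grin3b. TTCAGCACC occurred in the Grm2 window only (2.38%, against 0.371%). GGACAG occurred in 17 windows (40.5%, against 22.2%), including those of Gria2 and Grm2. The median number of CpG dinucleotides was 11.5 per member window and 7 over all windows. These matches describe the letters of the windows, and binding was not measured.

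**Figure D1:**
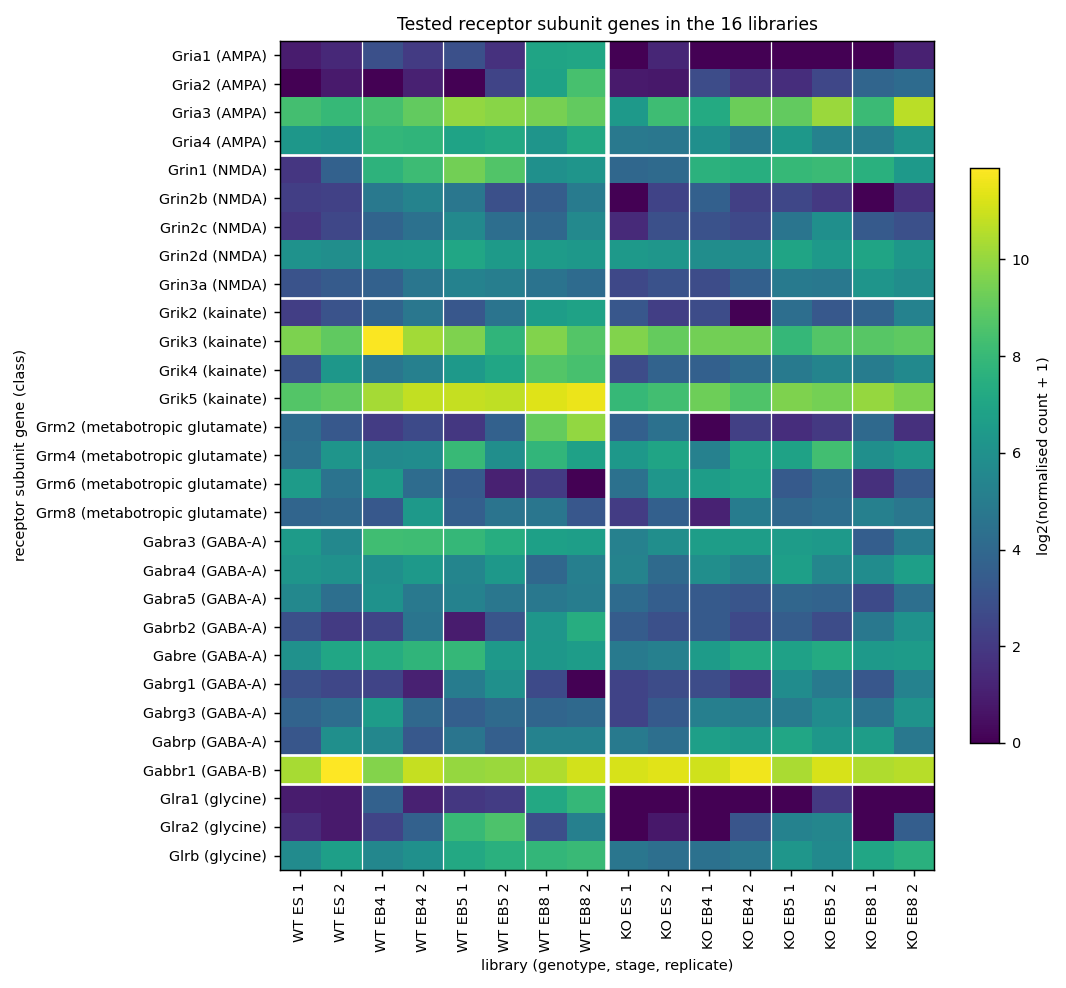
Levels of 29 tested receptor subunit genes (rows, grouped by receptor class) in the 16 libraries (columns, WT left of the thick line and KO right of it). Colour gives log2(normalised count + 1). Gria1, Gria2, Glra1 and Grm2 are brightest in the 2 WT EB8 libraries, whereas Grik5 and Gabbr1 are bright throughout.

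The first question was which receptor genes are transcribed before neurons form. In the ES libraries the leading members were Gabbr1, which encodes the agonist-binding subunit of the GABA-B receptor, Grik3 and Grik5 of the kainate receptors and Gria3 of the AMPA receptors. Levels are compared between genes per kb of annotated exon. By that measure, averaged over the 16 libraries, the highest member of its class was Grik5 (290 normalised counts per kb) among the kainate subunits, Gabbr1 (244) for GABA-B, Gria3 (58.5) for AMPA, Grm2 (31.3) for the metabotropic receptors, Glrb (30.4) for glycine and Grin1 (18.7) for NMDA. Grm2 owed its place to 2 libraries, as described below.

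No receptor gene differed between KO and WT in ES cells at an adjusted p of 0.05 (limma, 0 of 30 tested members, and 0% of the 16124 genes tested). The unadjusted p was under 0.05 for 7 members. The quasi-likelihood test of edgeR on the recovered reads called 0 members and DESeq2 called 2, Glrb among them. For these counts the shares over all tested genes are not given here. In ES cells Glrb was counted at 52.8 and 103.6 in WT against 24.1 and 19.3 in the KO, and the groups did not overlap.

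Between ES and EB4, 4 of the 30 members rose in WT and none fell, against 16.5% of all tested genes called and 8.98% called higher. Grin1, the obligatory subunit of NMDA receptors, rose most. Its level in WT was 2.7 and 12 normalised counts in ES and 208.2 and 280.9 at EB4, a log2 change of 5.13 (SE 0.54, limma adjusted p = 0.000461). The same gene was the only member called in KO, where it went from 14.9 and 16.4 to 199.8 and 177.4 (log2 change 3.50, adjusted p = 0.0091), against 3.50% of all genes called and 2.51% called higher. The KO call was lost without any single library of its 4, each of which leaves 0 calls. The other risers in WT were Gabra3 (90.1 and 46.2 to 306.9 and 289.5, log2 change 2.19, adjusted p = 0.0108), Grik5 (419.6 and 507.9 to 1238 and 1780, log2 change 1.68, adjusted p = 0.00239) and Gria4 (77.4 and 67 to 237.8 and 222, log2 change 1.66, adjusted p = 0.0465). Gria4 lost its call without any 1 of the 4 libraries compared, and Gabra3 without WT ES replicate 2 or without WT EB4 replicate 1.

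At EB5 Grin1 was at 648.3 and 409.6 in WT and at 251.2 and 271.5 in the KO. At EB8 it stood at 60.9 and 73.1 in WT and at 188.9 and 82 in the KO. Both genotypes had their highest values at EB5, although the step from EB4 to EB5 was not tested. Grin1 shares 1307 exon bases with E130003G02Rik on the opposite strand, and reads of the pair cannot be told apart because the use of strand in counting was not stated. The latter was counted at 0 to 29.6 and was likewise highest at EB4 and EB5.

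At EB4, 2 members were lower in the KO, against 6.12% of all genes called and 3.37% called lower. Gria4, which encodes the AMPA subunit GluA4, was counted at 237.8 and 222 in WT and at 59.6 and 28.1 in the KO (log2 change -2.46, SE 0.52, limma adjusted p = 0.0206). Grik5 was at 1238 and 1780 in WT and at 612.2 and 393.1 in the KO (log2 change -1.60, adjusted p = 0.00931). For both genes each KO library was below each WT library. Without WT EB4 replicate 2 or without KO EB4 replicate 2 neither call remained, and that of Gria4 was lost without WT EB4 replicate 1 also.

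Grik5 was the sole member called at EB5, against 4.34% of all genes called and 2.17% called lower. It was counted at 1828 and 1740 in WT and at 766.1 and 687.5 in the KO (log2 change -1.30, SE 0.26, adjusted p = 0.0227). This call was lost when any 1 of those 4 libraries was left out, although the log2 change stayed between -1.37 and -1.22. Grik5 encodes GluK5, an auxiliary kainate subunit that binds glutamate with high affinity and forms channels together with GluK1 to GluK3. It was below WT in KO at all 4 stages with no overlap between the groups, and in ES cells the log2 change of -0.72 did not pass the test (adjusted p = 0.322).

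The levels of Glra2, the alpha subunit of the embryonic glycine receptor, were highest at EB5. The steps from EB4 to EB5 and from EB5 to EB8 were not tested. In WT the level of Glra2 was 4.4 and 11.8 at EB4, 257.8 and 383.2 at EB5, and 6.3 and 34.9 at EB8. In KO the corresponding values were 0 and 7.7, then 37.9 and 42.7, then 0 and 10.7. The EB5 libraries were the highest of their genotype in both, and the KO pair lay below the WT pair. The difference at EB5 did not pass the test (log2 change -2.94, SE 1.21, adjusted p = 0.192). The gamma subunit Gabrg1 had its highest WT values at the same stage, 31.1 and 61.5, where KO had 54 and 29.1.

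The next question was which subunits changed between EB4, before retinoic acid, and EB8, after it. No untreated aggregates were sampled at EB8, so retinoic acid and time in culture cannot be told apart. From EB4 to EB8, 12 of the 30 members changed in WT, 8 upwards and 4 downwards, against 27.2% of all tested genes (15.0% higher and 12.2% lower). In KO 7 members changed, 4 upwards and 3 downwards, against 18.5% of all genes (9.86% higher and 8.67% lower). The 8 that rose in WT were Gria1, Gria2, Grik4, Grik5, Grm2, Gabrb2, Glra1 and Glrb. Those that rose in KO were Grik2, Grik5, Grin3a and Glrb. The EB4 libraries of a genotype entered both of its stage comparisons.

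**Figure D2:**
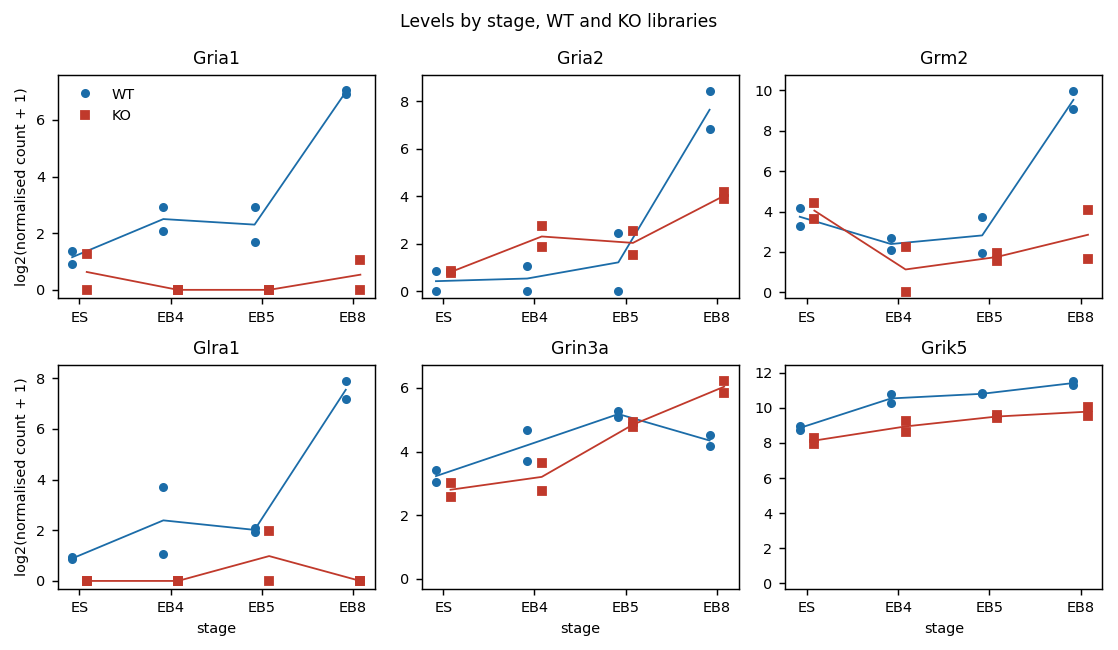
Normalised counts of 6 members as log2(normalised count + 1) against stage, 1 point per library (WT circles, KO squares), with lines through the means of the 2 libraries. Gria1, Gria2, Grm2 and Glra1 rise at EB8 in WT and stay low in KO, Grin3a rises at EB8 in KO, and Grik5 rises in both from a lower level in KO.

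Grm2, a presynaptic receptor that limits glutamate release, was among the members that rose most in WT. It was counted at 3.3 and 5.4 at EB4, at 2.8 and 12.1 at EB5 and at 538.7 and 1016.4 at EB8 (log2 change from EB4 7.15, SE 0.95, adjusted p = 0.000192). Gria2, the subunit that renders AMPA receptors impermeable to calcium, had 1 read in the 2 WT EB4 libraries together and 113.4 and 349.4 normalised counts at EB8, a ratio of 431.6 with a 95% counting interval of 76.1 to 16860 (limma adjusted p = 0.000124). Glra1, the alpha subunit of the adult glycine receptor, went from 12.1 and 1.1 to 144.9 and 238.2 (log2 change 5.17, SE 0.90, adjusted p = 0.00129). For each of these 3 genes every WT EB8 library was above every other library of the series.

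The falls in WT were led by Grm6, a metabotropic receptor best known from retinal bipolar cells. Its level went from 87.7 and 17.2 to 3.2 and 0, that is from 96 to 3 reads, a ratio of 33.3 with a counting interval of 10.9 to 162.3 (adjusted p = 0.0127). It fell in KO also, from 98.1 and 120 to 2.1 and 9.6 (log2 change -4.25, SE 1.11, adjusted p = 0.0203). The WT call was lost without WT EB4 replicate 1 or WT EB8 replicate 2, and the KO call without either KO EB4 library or KO EB8 replicate 1. Grm6 shares 599 exon bases with Gm12660 on the other strand. Grik3 fell in WT from 3651.8 and 1198.8 to 796 and 420.3 (log2 change -1.85, adjusted p = 0.034), a call that was lost without WT EB4 replicate 1 or WT EB8 replicate 2. Grin1 fell by 1.84 on the log2 scale in WT (adjusted p = 0.0244), and this call was lost without any 1 of its 4 libraries. Gabra3 fell in both genotypes, by 1.51 in WT (adjusted p = 0.0344) and by 2.35 in the KO (adjusted p = 0.00633). The WT call was lost without any 1 of its 4 libraries and the KO call without KO EB8 replicate 1.

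In KO the largest rise was that of Grik2, from 5.8 and 0 to 12.7 and 38.3 (log2 change 3.15, SE 0.91, adjusted p = 0.0314), a call lost without KO EB4 replicate 2 or KO EB8 replicate 2. Grin3a, an NMDA subunit that lowers calcium permeability and is abundant in the immature brain, rose from 5.8 and 11.5 to 73.9 and 56.5 (log2 change 2.83, SE 0.51, adjusted p = 0.00351). Glrb, the subunit that tethers glycine receptors to gephyrin, rose from 21 and 25.5 to 130.8 and 188.5 (log2 change 2.71, SE 0.41, adjusted p = 0.00128). Glrb also rose in WT, from 44.9 and 61.1 to 233.1 and 262.6. The beta subunit of the glycine receptor thus rose in both genotypes, while the alpha subunit Glra1 had no read in the 4 KO libraries of EB4 and EB8.

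**Figure D3:**
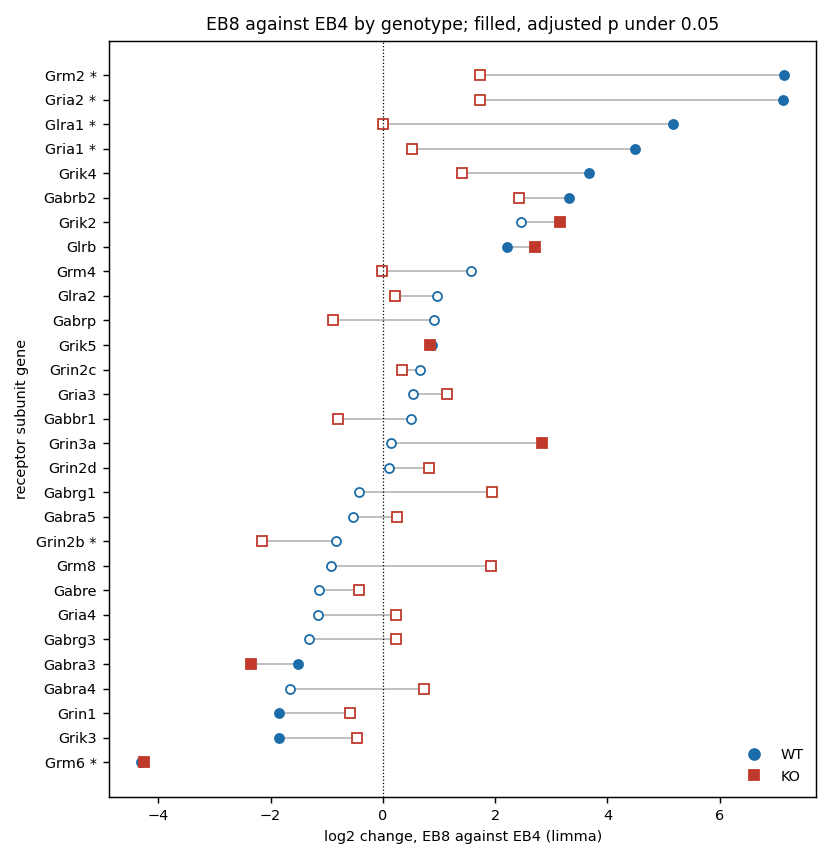
Log2 change from EB4 to EB8 of 29 tested members (limma, genes ordered by the WT change), WT as circles and KO as squares, filled where the adjusted p is under 0.05. An asterisk marks a member with 3 or fewer reads in a compared group, whose fitted change depends on the pseudocount. Grm2, Gria2, Glra1 and Gria1 lie far to the right in WT and near or below 2 in the KO.

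The change from EB4 to EB8 of 2 members differed between the genotypes in the test of that difference, against 2.75% of all genes called and 1.71% called lower. One of them was Gria2, for which the fitted difference was -5.39 (SE 1.26, adjusted p = 0.0417), a value that rests on 1 read at EB4 in WT and therefore on the pseudocount. Leaving out single libraries left 0 or 1 members called. The call of Gria2 was lost without any 1 of the 8 libraries. Glra1 and Grm2 (both adjusted p = 0.0531), Gria1 (adjusted p = 0.0723) and Grin3a (adjusted p = 0.0754) did not pass.

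At EB8, the last stage sampled, 11 of 30 members differed between KO and WT (36.7%), 9 lower and 2 higher. The background at this stage was large, 22.9% of all tested genes, with 12.5% lower and 10.4% higher. The median log2 change of the 30 members was -1.11, and that of all tested genes was -0.029. By class, 2 of 4 AMPA, 2 of 5 NMDA, 2 of 4 kainate, 1 of 4 metabotropic, 3 of 9 GABA-A, 0 of 1 GABA-B and 1 of 3 glycine receptor genes were called. In bulk RNA, fewer cells of a type and less RNA per cell cannot be told apart.

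Marker lists of cell types were also compared between KO and WT at EB8. All 7 neuronal markers tested were lower in KO at EB8, and their sum was 16320 and 20607 in WT against 1251.3 and 1482.8 in the KO. Of 6 neural progenitor markers 5 were lower (sums of 43971 to 47588 in WT and 8743.3 to 9233.5 in the KO). Of 7 pluripotency markers 6 were higher, with sums of 1454.4 and 1821.1 in WT and 25295 and 28943 in the KO. Germ cell markers were higher for 3 of 4 (sums 473.3 to 666.8 in WT, 2671.6 to 3655.8 in the KO). Endoderm markers were lower for 2 of 4 (1535.2 to 1838.8 against 610.4 to 667.9) and heart and muscle markers for 1 of 4 (140.8 to 403.2 against 403.7 to 459). Of 3 astrocyte markers Aldh1l1 was higher and Gja1 lower (sums 5558.6 to 6722.8 against 1986.7 to 3688.9). None of 5 oligodendrocyte lineage markers (1504.8 to 1822.2 against 1259.1 to 1690.2) and none of 7 feeder fibroblast markers (2393.2 to 3129.7 against 1093 to 3392.8) was called. The part of these cell types in the receptor differences was not tested.

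**Figure D4:**
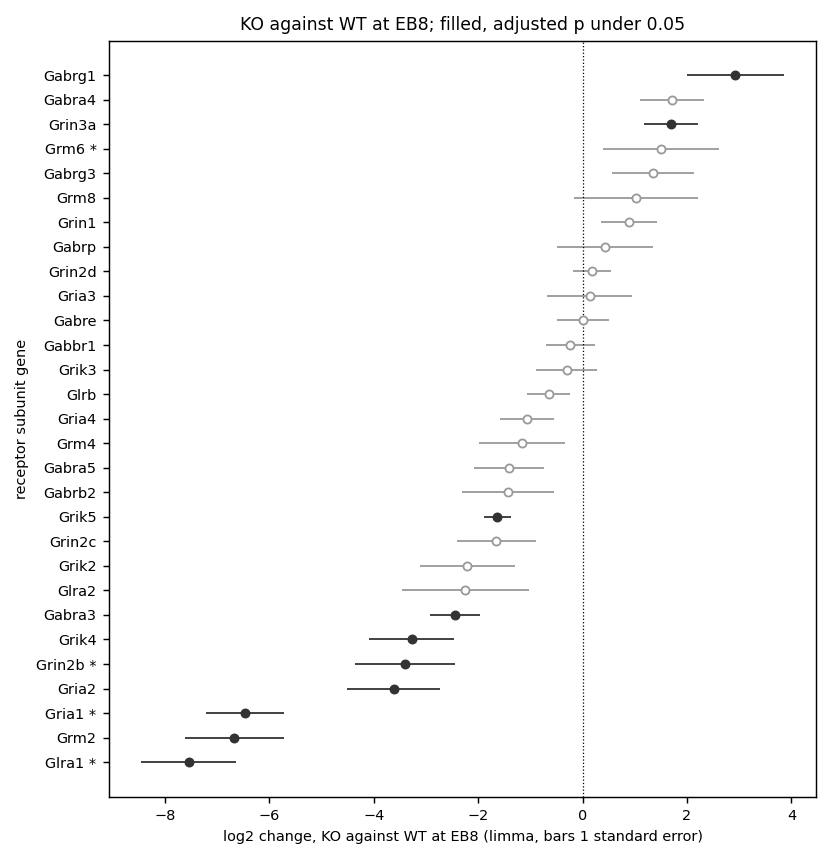
Log2 change of KO against WT at EB8 for 29 tested members (limma), with bars of 1 standard error, filled where the adjusted p is under 0.05. An asterisk marks a member with 3 or fewer reads in a group, whose fitted change depends on the pseudocount. The 8 filled points left of 0 have Glra1, Grm2 and Gria1 farthest out, and Gabrg1 and Grin3a lie to the right.

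Among the AMPA subunits, Gria1 and Gria2 were lower in KO. Gria1, which encodes GluA1, was counted at 120.8 and 130.2 in WT EB8 and at 0 and 1.1 in the KO, the latter being a single read. The ratio was 235.6, with a 95% counting interval of 42.1 to 9389 (limma adjusted p = 0.000164). In the KO libraries of all stages Gria1 never exceeded 1.4 normalised counts. Gria2 was at 113.4 and 349.4 in WT and at 13.7 and 17 in the KO (log2 change -3.62, SE 0.89, adjusted p = 0.0122). Both KO libraries were below both WT libraries, but the call of Gria2 was lost without WT EB8 replicate 2 or KO EB8 replicate 1.

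The remaining AMPA genes did not pass the test at EB8. Gria3 was at 692 and 529.4 in WT and at 271.2 and 1625.6 in the KO (log2 change 0.13, SE 0.81, adjusted p = 0.928), so that the KO libraries enclosed the WT ones. The higher value belonged to the replicate with the raised X chromosome, and without it the log2 change was -1.16 (adjusted p = 0.37). Without WT EB8 replicate 2 it was -0.059. Gria4 was at 73.5 and 142.9 in WT and at 32.7 and 71.4 in the KO (log2 change -1.07, adjusted p = 0.16).

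The make-up of the AMPA class, as each gene's share of the summed counts per kb, followed from these levels. In WT EB8, Gria1 gave 16.9% and 14.5% of the sum, Gria2 13.8% and 33.9%, Gria3 59.4% and 36.2%, and Gria4 9.92% and 15.4%. In KO EB8, Gria3 alone gave 79.3% and 92.2%. Gria1 gave 0% and 0.0985% there, and Gria2 5.68% and 1.37%. In every library before EB8, of either genotype, Gria1 and Gria2 each gave at most 3.26%, Gria3 and Gria4 sharing the rest.

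Among the NMDA subunits the calls went both ways. Grin2b, the GluN2 subunit of the embryonic forebrain, was at 10.5 and 29.6 in WT and at 0 and 2.1 in the KO. This was 38 against 2 reads, a ratio of 18.8 with a counting interval of 4.88 to 161.7 (adjusted p = 0.0227). Grin3a was higher in KO, at 73.9 and 56.5 against 22.1 and 16.9 (log2 change 1.69, SE 0.51, adjusted p = 0.0329). No values of the genotypes overlapped for either gene. Grin3a lost its call without any 1 of the 4 libraries, and Grin2b without WT EB8 replicate 2 or KO EB8 replicate 1. Grin1 (log2 change 0.89, adjusted p = 0.262), Grin2c (-1.65, adjusted p = 0.141) and Grin2d (0.18, adjusted p = 0.756) were not called. Grin2d was steady, at 53.6 to 132.7 over the 16 libraries.

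The kainate class was the most abundant per kb in WT EB8, with a summed level of 829.4 and 895 against 329.8 and 264.2 in the KO at EB8. Grik5 made up 79% and 86.5% of that sum in WT and 82.7% and 73.2% in the KO. It was at 2512.9 and 2968.8 normalised counts in WT EB8 and at 1046.6 and 741.4 in the KO (log2 change -1.63, SE 0.26, adjusted p = 0.00112). Grik5 rose from EB4 to EB8 by 0.88 in WT and 0.84 in the KO on the log2 scale, and the difference of these changes was -0.04 (SE 0.37, adjusted p = 0.978). Between the genotypes it was lower in the KO by a log2 change of -1.60 at EB4 and of -1.63 at EB8. The EB8 difference held without any 1 library. The rise from EB4 to EB8 was not called without WT EB4 replicate 1 or either WT EB8 library in WT, nor without KO EB4 replicate 2 or KO EB8 replicate 1 in the KO.

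Grik4, the other auxiliary high-affinity subunit, was at 425.3 and 345.2 in WT and at 30.6 and 49 in the KO (log2 change -3.27, SE 0.81, adjusted p = 0.0128). This call was lost without WT EB8 replicate 1, WT EB8 replicate 2 or KO EB8 replicate 1. Grik2 was at 97.7 and 115.4 in WT and at 12.7 and 38.3 in the KO, with no overlap, but did not pass (log2 change -2.21, SE 0.91, adjusted p = 0.101). Grik3 stood at 796 and 420.3 against 440 and 497.5 (log2 change -0.31, adjusted p = 0.749), overlapping.

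Of the metabotropic receptors Grm2 alone was called. It was at 538.7 and 1016.4 in WT EB8 and at 15.8 and 2.1 in the KO, that is 1473 against 17 reads (log2 change -6.67, SE 0.95, adjusted p = 0.000548). Both KO values lay within the range of the ES, EB4 and EB5 libraries, 0 to 20.7. Grm2 gave 77.4% and 92.2% of the metabotropic counts per kb in WT EB8, and 20.1% and 2.51% in the KO at EB8. Grm4, which in KO EB8 gave 46.9% and 61.2%, was counted at 223.7 and 110.1 in WT and 59.1 and 83.1 in the KO without passing the test (log2 change -1.15, adjusted p = 0.343). Grm8 (1.02, adjusted p = 0.58) and Grm6 (3 against 11 reads, adjusted p = 0.362) did not pass either.

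The GABA-A subunits called at EB8 included Gabra3 and Gabrg1. Gabra3, an alpha subunit, was at 107.1 and 100.6 against 10.6 and 30.9 (log2 change -2.45, SE 0.48, adjusted p = 0.00364). Gabrg1 was higher in KO, at 8.4 and 37.3 against 5.3 and 0 (log2 change 2.93, SE 0.93, adjusted p = 0.0402). The values of KO and WT did not overlap in either gene. Gabrg1 rested on 5 reads in WT and lost its call without WT EB8 replicate 2 or KO EB8 replicate 2, whereas the call of Gabra3 remained without any 1 library.

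The GABA-A genes lie in clusters in the mouse genome. On chromosome 7 (build NCBI37) Gabra5 (64663060 to 64765379, minus strand) adjoins Gabrg3 (63971835 to 64642558, minus). Gabra5 was at 26.3 and 31.8 in WT EB8 and 5.3 and 19.2 in the KO, a log2 change of -1.41 (adjusted p = 0.148), and Gabrg3 at 13.7 and 15.9 against 22.2 and 68.2, a log2 change of 1.35 (adjusted p = 0.241). On the X chromosome Gabra3 (69678020 to 69902187, minus) lies next to Gabre (69501338 to 69520142, minus). Gabre was at 77.7 and 95.3 in WT EB8 and 82.3 and 90.5 in the KO (log2 change 0.0044, SE 0.50, adjusted p = 0.997). On chromosome 5 Gabrg1 (71142286 to 71233856, minus) lies near Gabra4 (71960973 to 72049547, minus), which was at 14.7 and 33.9 in WT and 54.9 and 104.4 in the KO (log2 change 1.71, SE 0.61, adjusted p = 0.0633). Gabra4 was called higher at EB8 with upper-quartile scaling and with DESeq2. Gabra2, which lies between these genes, was not tested.

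On chromosome 11 Gabrb2 (42233259 to 42446092, plus), a beta subunit, rose in WT from 4.4 and 23.6 at EB4 to 75.6 and 169.4 at EB8 (log2 change 3.31, adjusted p = 0.0156, lost without WT EB4 replicate 1 or WT EB8 replicate 2) and at EB8 was at 26.4 and 65 in the KO (log2 change against WT -1.43, adjusted p = 0.274).

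Gabrp, a subunit found mainly in epithelia, was at 37.8 and 38.1 in WT EB8 and at 98.1 and 26.6 in the KO (log2 change 0.43, adjusted p = 0.779). Of the GABA-B genes, Gabbr1 was at 1428 and 2166 in WT and at 1435 and 1563 in the KO (log2 change -0.23, SE 0.47, adjusted p = 0.762). It was expressed at 837.3 to 3817 normalised counts in all libraries. Gabbr2, which encodes the partner needed to bring the receptor to the surface, was not tested and gave at most 2.38% of the class sum per kb in any library.

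Among the glycine receptor subunits Glra1 was lower in the KO. It was counted at 144.9 and 238.2 in WT EB8 and had no read in either KO library, which makes it at least 120.5-fold lower against a floor of 3 reads over the group (limma adjusted p = 0.000205). Over all KO libraries it reached 3 reads, in 1 library of EB5. Glrb was at 233.1 and 262.6 in WT EB8 and at 130.8 and 188.5 in the KO (log2 change -0.65, SE 0.41, adjusted p = 0.284), with no overlap and no call. Glra1 shares 141 exon bases with Gm12236 on the other strand.

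**Figure D5:**
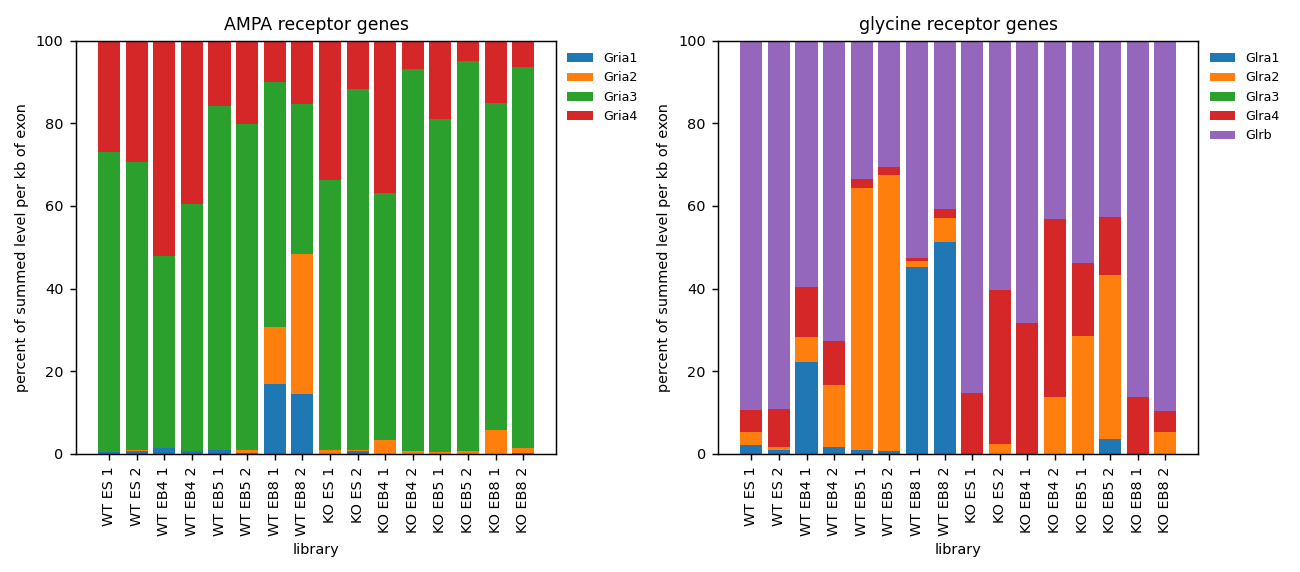
Share of each AMPA subunit gene (left) and each glycine receptor subunit gene (right) in the summed normalised counts per kb of exon of its class, in percent, for each of the 16 libraries. Gria1 and Gria2 have a visible share in WT EB8 and Gria2 a small one in KO EB8 and KO EB4. In WT the share of Glra2 is highest at EB5 and that of Glra1 at EB8.

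The make-up of the glycine receptor class differed between stages in WT. In ES cells the beta subunit Glrb gave 89.5% and 89.2% of the sum per kb. At EB5 the alpha subunit Glra2 gave 63.5% and 66.7%. At EB8 Glra1 gave 45.2% and 51.2%, beside 52.55% and 40.84% from Glrb. In KO EB5, Glra2 gave 28.5% and 39.7%, and in KO EB8 Glrb gave 86.2% and 89.6%. The sum itself was 132.9 and 192.7 per kb in WT EB8 and 45.5 and 63.1 in the KO at EB8.

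Of the 19 untested members, 13 stayed under 20 normalised counts in all libraries. The untested glutamate receptor genes included Grin2a (0 to 25.2), Grin3b (0 to 19.8), Grik1 (0 to 14.3), Grm3 (0 to 8.5), Grm5 (0 to 11.7) and Grm7 (0 to 9.6). Those of the GABA-A class included Gabra2 (0 to 29.1), Gabrb1 (0 to 4.8), Gabrd (0 to 17), Gabrq (0 to 27.7), Gabrr1 (0 to 39.4), Gabrr2 (0 to 5.5) and Gabrr3 (0 to 6.3). Gabbr2 ranged from 2.3 to 17.9, Glra4 from 1.8 to 15.3, and Glra3 had a single read in the whole series. Grin3b overlaps ORF61 on the opposite strand by 1059 exon bases. Gabrr1, a rho subunit typical of the retina, had 1 read in WT EB8 and 47 in the KO at EB8, a ratio of 47.6 (8.08 to 1906). Gabrr1 was also present in WT ES replicate 2, at 29.5. Grin3b went the other way, with 27 reads in WT EB8 and 3 in the KO, a ratio of 8.996 (2.755 to 46.1). Grm7 had 3 reads in WT EB8 and 15 in the KO, a ratio of 5.01 (1.42 to 27.1).

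As background for the receptors, 3 lists of partner genes were counted. Of 39 tested genes for anchoring and auxiliary proteins, 13 were lower and 2 higher in KO at EB8, with a median log2 change of -0.96, where 12.5% of all tested genes were lower and 10.4% higher. They included Dlg4, the scaffold PSD-95 (963 and 1509.8 in WT, 436.8 and 270.6 in the KO, log2 change -1.81, adjusted p = 0.00662), Gphn, the gephyrin that anchors glycine and GABA-A receptors (991.3 and 1145.6 against 464.2 and 541.1, log2 change -1.09, adjusted p = 0.00463), and the AMPA receptor auxiliary subunit Cacng4 (393.8 and 576 against 119.2 and 78.8, log2 change -2.28, adjusted p = 0.0401). Nsf, an ATPase of membrane fusion, and the neuronal pentraxin Nptx2 were the 2 higher ones. The list at EB4 and EB5 had 2 and 3 genes lower and none higher, where 3.37% and 2.17% of all tested genes were lower. Gphn was among them at both stages, in calls that were lost without any 1 of the 4 libraries compared. At EB8 the call of Gphn held without any 1 library, that of Cacng4 was lost without each of the 4, that of Dlg4 without WT EB8 replicate 2 or KO EB8 replicate 2, that of Nptx2 without WT EB8 replicate 2 or KO EB8 replicate 1, and that of Nsf without KO EB8 replicate 1.

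Of 25 tested genes for transmitter synthesis and transport, 9 were lower and 1 higher at EB8, with a median log2 change of -0.62, beside the same 12.5% and 10.4% of all tested genes. Slc6a5, the glycine transporter of glycinergic neurons, was at 277.2 and 555.9 in WT EB8 and at 5.3 and 7.5 in the KO (log2 change -5.76, SE 0.82, adjusted p = 0.000548), and in no earlier library above 13.6. Slc32a1, the vesicular transporter of GABA and glycine, was at 84 and 236.1 against 12.7 and 8.5 (log2 change -3.64, adjusted p = 0.00513). Gad1 and Gad2, which make GABA, were lower by 3.24 and 3.06 on the log2 scale (adjusted p = 0.00119 and 0.0326). Glutamate transporters were among the lower genes too. Slc1a2 was at 1697 and 1273.7 in WT EB8 and at 35.9 and 51.1 in the KO. Slc1a3 was at 3416 and 4542.1 against 809.2 and 917.2, and Slc17a8 at 36.8 and 190.6 against 0 and 6.4. Without WT EB8 replicate 2 the call of Slc17a8 was lost, while those of Slc1a2 and Slc1a3 held without any 1 library. Slc17a6, the vesicular glutamate transporter VGLUT2, was at 0 to 7.7 in all 16 libraries and was not tested. Gls2, a glutaminase, was the higher one. Slc6a5 and Gad1 kept their EB8 calls without any 1 library, Gad2 lost its call without each of the 4, Slc32a1 without WT EB8 replicate 2, and Gls2 without WT EB8 replicate 1 or KO EB8 replicate 1.

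The chloride transporters set whether GABA and glycine depolarise a cell. Slc12a5 (KCC2), which extrudes chloride, was at 202.7 and 324 in WT EB8 and at 108.7 and 98 in the KO, and did not pass (log2 change -1.30, SE 0.44, adjusted p = 0.052). It rose from EB4 to EB8 in both genotypes, by 1.59 in WT (adjusted p = 0.0192) and 1.79 in the KO (adjusted p = 0.0165). Slc12a2 (NKCC1), which loads chloride, was at 3017 and 3532.1 in WT EB8 and at 3646.3 and 3778.4 in the KO, with no call at EB8 (adjusted p = 0.526). It was higher in KO at EB4 (log2 change 0.91, adjusted p = 0.0202). The EB4 call of Slc12a2 was lost without either WT library or KO EB4 replicate 2, and the rise of Slc12a5 without WT EB4 replicate 1 or WT EB8 replicate 2 in WT and without any 1 of 4 libraries in the KO.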

How the data were processed

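Polyadenylated RNA of 16 libraries (8 groups of 2) was analysed. Per the labels, TruSeq v2 libraries were sequenced as single-end reads. Per the submitters' processing notes, which name no role for each tool, CASAVA 1.7 and 1.8, TopHat2 2.0.10, HTSeq 0.5.4p3, DESeq2 1.0.19 and build mm9 were used. The use of strand was not given in the sources used here. The deposited values are a normalised signal, the authors' counts per gene divided by a size factor. All were whole multiples of a step per library (100% within 0.01 reads), from which reads were recovered.

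The main test was limma 3.58.1 (R 4.3.3) on log2(normalised count + 1), with a mean per group over all 16 libraries, eBayes with trend, and Benjamini-Hochberg adjustment over the 16124 genes with a mean of at least 10. The threshold was 0.05, with no threshold on the fold, and the log scale understates the change of low genes. Where a group held 3 reads or fewer, a ratio with an exact 95% (Clopper-Pearson) interval or a bound is given. Intervals and floors cover counting error only, as PCR copies are not independent molecules. Depth sets what low members can show.

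Alternatives were pseudocounts of 0.1 and 5, no filter, a mean of at least 50, upper-quartile and quantile scaling, a fit of only the compared groups, a replicate block, edgeR 4.0.16 and DESeq2 1.42.0 on recovered reads, and leaving out each library. A crossed replicate block was added after the data were seen. Gene positions and exons came from GENCODE M1 on NCBI37, which holds 27603 of the identifiers and lacks 204. Named were the members called between genotypes at any stage, the highest member per kb of each class, the 3 largest rises and falls of each stage comparison, the members with a genotype difference in the EB8 change, and the untested members. The members, partner lists and marker lists were chosen with earlier results of these data known. Some members count in these totals and are not reported here. Scripts were tested on simulated data.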

Additional observations from a re-analysis of the deposited data

Results flagged for a closer look

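Gria2 stood out because its change from EB4 to EB8 differed between KO and WT by an interaction term of the limma fit. The difference was -5.39 on the log2 scale (SE 1.26, adjusted p = 0.0417), with 1 read in the WT EB4 group, and its adjusted p ranged from 0.0102 to 0.177 over the alternatives.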

How the results depend on the processing

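Of the 36 named results, 14 kept their direction and side of the threshold under all alternatives that tested the gene. Another 20 had at least 1 alternative in which the call was lost, and 2 changed sign. At EB8 the calls of Gabra3, Grik5 and Grm2 held under every alternative run. Those of Glra1 and Gria1 held under every alternative that tested them, but the filter of a mean of at least 50 left both genes untested. Leaving out 1 library gave 6 to 9 members called for KO against WT at EB8, 0 to 3 at EB4, 0 at EB5 and 0 to 1 in ES. It gave 2 to 4 for EB4 against ES in WT and 0 in the KO, 6 to 11 for EB8 against EB4 in WT, 4 to 6 in the KO, and 0 to 1 for the difference of these changes. That difference had 1 member with a pseudocount of 0.1, with a mean of at least 50, with upper-quartile scaling and with edgeR, 6 with a pseudocount of 5, 5 with quantile scaling, 4 with DESeq2 and 0 in the fit of only the groups compared. A mean of at least 50 tested fewer genes and left 5 members at EB8, and for EB8 against EB4 it left 7 in WT and 4 in the KO. The fit of only the groups compared, with fewer samples, left 0 members at EB4, EB5 and for EB4 against ES in both genotypes, and 4 for EB8 against EB4 in the KO. At EB5 a pseudocount of 5 and DESeq2 each called 2. DESeq2 called 2 in ES, 5 at EB4 and 4 for EB4 against ES in KO. The shares of all tested genes called under these alternatives are not given here, and the cause was not tested. Without WT EB8 replicate 2 the EB8 change of Gabbr1 was 0.068 (range over left-out libraries -0.532 to 0.0683) and that of Gria3 -0.059 (range -1.16 to 1.42). The median over all tested genes was 0.111 with upper-quartile scaling for KO against WT at EB8, and -0.109 with quantile scaling for EB8 against EB4 in WT. Same-numbered libraries correlated at 0.335 in ES, -0.058 at EB4, -0.209 at EB5 and -0.133 at EB8 between genotypes, over 0.1 only in ES. Within a genotype they correlated at 0.523 to 0.605 among the WT EB groups and at 0.233 to 0.422 among the KO groups, but at -0.179 to -0.048 between WT ES and the WT EB groups. The median gene of chromosome 8 stood 0.385 to 0.411 (log2) above its mean over all libraries in replicate 1 of WT EB4, EB5 and EB8, and at -0.158 to 0.0271 in the other libraries. The labels give only a number, and the tests between stages were made without the block. With a replicate block 0, 2, 1 and 11 members were called between the genotypes in ES, EB4, EB5 and EB8, 5 and 1 for EB4 against ES in WT and KO, 12 and 7 for EB8 against EB4, and 3 for the difference, and the crossed replicate block gave 1 at EB5 and 11 at EB8. The 2 libraries per group limit what single members can show.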
